A study of Homo sapiens with 33 samples.

Results

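MSTO-211H cells grown without drug were compared with the other malignant pleural mesothelioma (MPM) cell lines that are sensitive to palbociclib, to find the genes whose RNA level set MSTO-211H apart from every one of them. The comparison used the 3 DMSO libraries of MSTO-211H and the 8 DMSO libraries of H2052 (2), H2452 (3) and H28 (3), which are 11 of the 33 RNA-seq libraries of the series. All 11 cultures received 0.1% DMSO, the solvent of the drug, for 9 or 10 days. The series also holds libraries of the same 4 lines under 1 µM palbociclib, an inhibitor of the cell cycle kinases CDK4 and CDK6, and 1 washout library of each line. It further holds libraries of the resistant lines MPP89 (MPM with a mutated RB1) and MeT-5A (mesothelial cells immortalized by SV40). Of these, 1 MeT-5A library is from untreated cells. According to the study's description of its lines, MSTO-211H and H2452 come from biphasic tumours and H2052 and H28 from sarcomatoid tumours, and all of them share a deletion of CDKN2A and CDKN2B. MSTO-211H is listed with a short deletion within LATS2 and wild-type NF2 and BAP1. H2052 is listed with a mutated NF2 and a lost LATS2, H2452 with a mutated BAP1, and H28 with an exon deletion in BAP1. Each line stands for 1 tumour, and its libraries are repeated experiments on that line, so the p-values measure the spread between experiments and not between tumours.

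Mesothelioma arises from the mesothelium, the thin lining of the pleura, which expresses keratins and mesothelin together with genes typical of mesenchymal cells. Epithelioid, biphasic and sarcomatoid tumours differ in how many of these epithelial features they keep. Loss of the CDKN2A locus, which encodes the CDK4 and CDK6 inhibitor p16, and defects of the Hippo pathway, in which NF2 and the LATS kinases restrain the coactivators YAP and TAZ, are recurrent in this tumour.

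The deposited matrix holds 58302 genes as CP20M, read counts that the authors scaled to a common library size, so column sums (20007662 to 20019921) do not give the depth. The spacing of the low values gave a depth of 14730000 to 19330000 counted reads for 7 of the 11 libraries. The 16288 genes that reached 100 CP20M in any of the 11 were tested, 13231 of them protein coding. Differences are on the scale of log2(CP20M + 10), which understates the change of low genes. A gene was called in a contrast when the limma fit gave a change of more than 1.5-fold and a Benjamini-Hochberg adjusted p under 0.05 over all genes tested. It set MSTO-211H apart when it was called in the same direction against H2052, H2452 and H28. These 3 contrasts share the MSTO-211H libraries and are not independent. For such a gene the text gives the smallest of the 3 log2 differences with its standard error and the line it refers to, and the largest of the 3 adjusted p values.

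Against H2052, 4163 genes were called higher in MSTO-211H (25.6% of those tested) and 3517 lower (21.6%). Against H2452 there were 4709 higher (28.9%) and 3594 lower (22.1%), and against H28 there were 4805 higher (29.5%) and 3829 lower (23.5%). In all 3 contrasts, 1373 genes were higher (8.43%) and 897 lower (5.51%), of which 1091 and 731 are protein coding. Under the same rule the other lines were set apart by 1346 higher and 1122 lower genes (H2052), 1073 and 1491 (H2452) and 1680 and 1825 (H28). The balance of higher and lower genes moved with the normalisation. After median-of-ratios scaling MSTO-211H had 1123 genes higher and 1065 lower, and with upper-quartile scaling 1034 and 1092, so the higher share went from 60.5% to 51.3% and 48.6%. The median over all tested genes of the mean log2 difference was 0.08 as deposited, 0.00 with median-of-ratios and −0.04 with upper-quartile scaling, so list medians this close to 0 carry no direction. Counts of called list members below are to be read beside the 8.43% higher and 5.51% lower of all tested genes.

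For 1346 of the 1373 higher genes (98.0%) every MSTO-211H library lay above all 8 others, which was so for 2369 of all tested genes (14.5%). For 839 of the 897 lower genes (93.5%) every MSTO-211H library lay below the others, against 1388 of all tested genes (8.52%). These counts use the values that made the call. In bulk RNA, fewer expressing cells and less RNA per cell cannot be told apart. The smallest difference had a median of 0.98 among the higher genes and −1.16 among the lower ones. It exceeded 1 in size for 669 and 536 genes, 2 for 173 and 179, and 3 for 76 and 77. Among the higher genes, 311 passed the filter only through MSTO-211H and 4 were listed at 0 in all 8 other libraries. Among the lower genes, 403 passed it only through the other lines and 21 were listed at 0 in all 3 MSTO-211H libraries. Leaving out genes for which a whole line is listed at 0 (93 higher and 21 lower) gave medians of 0.95 and −1.15. MSTO-211H libraries correlated with each other at r of 0.975 to 0.981 across genes and with H2052 at 0.781 to 0.809, H2452 at 0.759 to 0.794 and H28 at 0.703 to 0.723. Genes are not independent replicates.

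Several of the genes furthest above the other lines are known from neurons and synapses. NPTX1 (neuronal pentraxin 1, ENSG00000171246, chromosome 17 from 80466834 to 80477843, minus strand of GRCh38), a secreted protein that gathers glutamate receptors at synapses, was at 5475, 7149 and 8167 CP20M in the 3 MSTO-211H libraries. It was at 19 and 20 in H2052, 38, 29 and 25 in H2452 and 0, 0 and 0 in H28, so no library of another line came near. Its smallest difference was 7.41 ± 0.19 SE against H2452, with an adjusted p of 9.23e-10. KIF1A, a motor that carries synaptic vesicle precursors, was at 1913, 3184 and 2383 CP20M against 2 to 15 in the 8 others (6.85 ± 0.24 SE against H2452, adjusted p = 6.87e-09). NETO1, an accessory subunit of kainate and NMDA receptors, was at 745, 1292 and 1186 CP20M and listed at 0 in all 8 others (adjusted p = 6.7e-09). The pseudokinase CAMKV, found in synaptic vesicles, was at 853, 1448 and 1115 CP20M against 0 to 3 elsewhere (6.55 ± 0.25 SE against H2052, adjusted p = 7.68e-09). SYT14, a member of the synaptotagmin family, was at 886, 677 and 735 against 0 to 39 (4.60 ± 0.27 SE against H2452), and BEX1, a small adaptor protein of neuronal cells, at 531, 629 and 601 against 0 to 31 (4.86 ± 0.34 SE against H2452). NPAS1, a bHLH-PAS transcription factor of interneurons, was at 792, 938 and 1053 against 10 to 32 CP20M (4.60 ± 0.29 SE against H2052). This does not extend to neuronal markers in general. Of the 22 neuronal and neuroendocrine markers examined, 7 passed the filter, 0 were higher and 3 were lower (NCAM1, L1CAM and ENO2), with a median mean difference of −1.86. ENO2 lost its call without H2052 replicate 1 or 2, or without H2452 replicate 1 or 3, or without MSTO-211H replicate 2 or 3, or with no filter (adjusted p up to 0.177). The neural genes named first are members of no fixed list and were grouped after their values were seen.

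The abundant RNA of SERPINB2, plasminogen activator inhibitor 2, was a further mark of the line. SERPINB2 (chromosome 18 from 63871692 to 63903888) was at 23370, 22908 and 25382 CP20M, and at 654 and 531 in H2052, 50, 66 and 89 in H2452 and 0, 3 and 0 in H28. The 4 lines thus did not overlap, and H2052 was the closest (5.32 ± 0.21 SE against H2052, adjusted p = 1.36e-08). SERPINB10, the next gene on the same strand, was at 12720, 11198 and 12867 in MSTO-211H, and at 345 and 299 in H2052, 33, 28 and 43 in H2452 and 0, 3 and 0 in H28 (5.21 ± 0.19 SE against H2052). Its order across lines was that of SERPINB2, and whether reads of SERPINB2 were counted to it was not tested. Other genes of the serpin cluster around them did not go along. SERPINB7 was at 84, 62 and 301 CP20M in MSTO-211H and higher in H2052 (1046 and 752), SERPINB8 was at 853, 699 and 919 against 104 to 901, and SERPINB5 at 3, 2 and 10 against 355 and 311 in H2052.

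Enzymes, signalling genes and a germline gene completed the 15 largest. DIO2, the deiodinase that turns thyroxine into active thyroid hormone, was at 20445, 17174 and 3984 CP20M, with replicate 3 well below the others, and at 4 to 818 in the 8 other libraries (4.95 ± 0.79 SE against H2452, adjusted p = 0.000231). MAGEB2, a cancer-testis gene of the X chromosome that is silent in most adult tissues, was at 1015, 1110 and 990 against 0 to 2 CP20M (adjusted p = 1.31e-09). Values of PIK3CG, the catalytic subunit of PI3K gamma known mainly from leukocytes, were 481, 372 and 434 against 0 to 9 (4.56 ± 0.20 SE against H2052). ANXA10, an annexin best known from gastric epithelium, was at 750, 216 and 731 against 0 to 16 (4.55 ± 0.46 SE against H2052). Complement factor I (CFI), a protease that degrades C3b, was at 638, 502 and 229 against 0 to 13 (4.80 ± 0.44 SE against H2052), and C4BPB, a subunit of the C4b-binding protein, at 199, 232 and 402 against 0 to 6 (4.20 ± 0.28 SE against H2052). All 15 kept their call in each of the 24 other settings of the analysis. For genes that lost a call, the settings or their number are given with the gene, apart from a 2-fold threshold, which ends calls by construction.

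**Figure D1:**
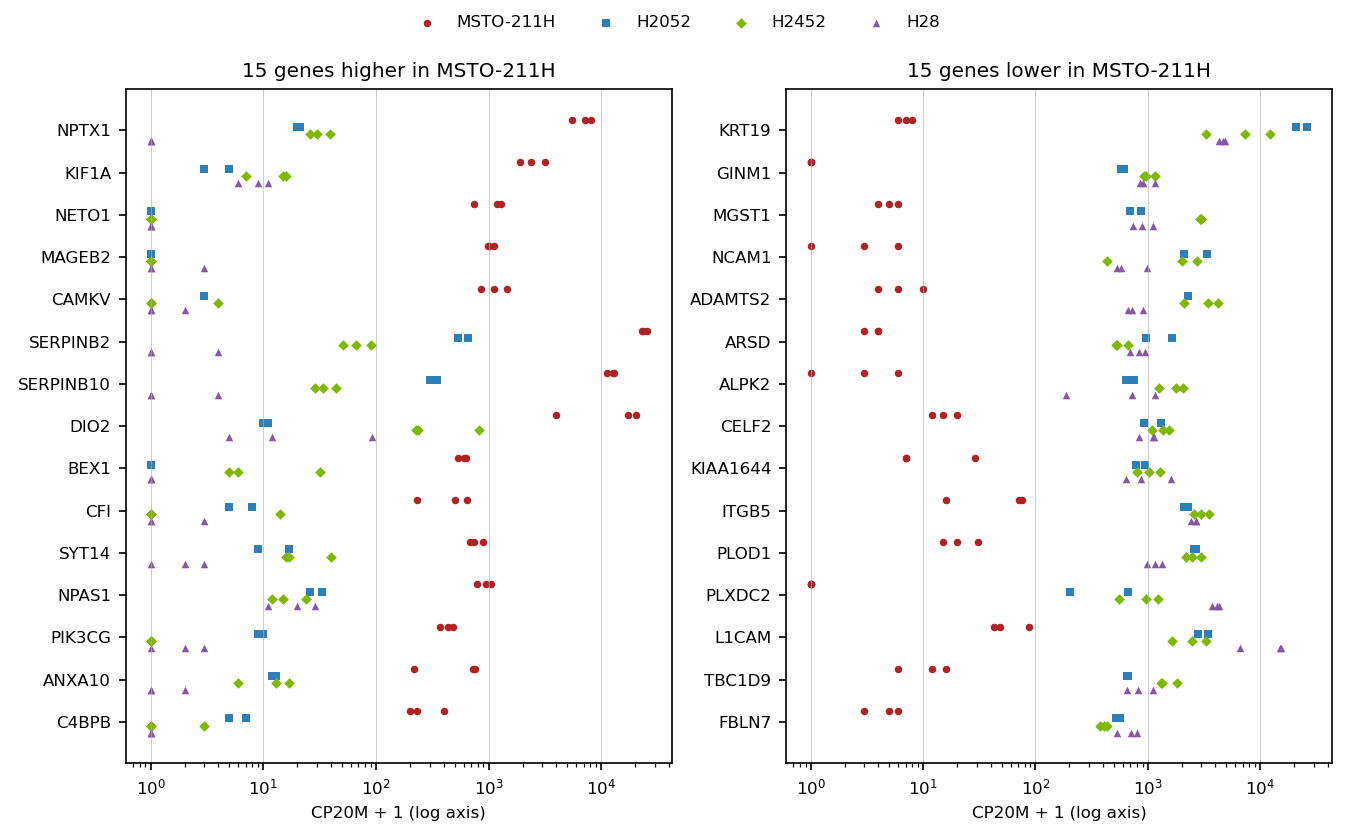
CP20M + 1 on a log axis in each of the 11 DMSO libraries (points, by cell line) for the 15 protein-coding genes furthest above and the 15 furthest below the other lines. No MSTO-211H point overlaps those of another line: NPTX1 sits between 5475 and 8167 against at most 38 elsewhere, and KRT19 between 5 and 7 against at least 3334.

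The gene furthest below the other lines was KRT19 (ENSG00000171345, chromosome 17 from 41523617 to 41528308, minus strand), a keratin of simple epithelia and mesothelium. It was at 7, 5 and 6 CP20M in MSTO-211H and at 20856 and 26295 in H2052, 7348, 12352 and 3334 in H2452 and 4646, 4295 and 4877 in H28. The sarcomatoid lines H2052 and H28 and the biphasic line H2452 thus had ample KRT19 RNA, and MSTO-211H, also biphasic, almost none. The smallest difference was −8.17 ± 0.35 SE against H28, with an adjusted p of 7.46e-09. MGST1, a microsomal glutathione transferase that protects membranes from oxidation, was at 3, 5 and 4 CP20M against 700 to 2961 (−5.82 ± 0.18 SE against H2052, adjusted p = 2.39e-09).

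Adhesion and matrix genes were among the other genes furthest below, grouped so after their values were seen. The neural cell adhesion molecule NCAM1 was at 2, 0 and 5 CP20M against 432 to 3365 in the other lines (−5.81 ± 0.55 SE against H28), and L1CAM, a related adhesion protein, at 47, 42 and 87 against 1632 to 15312 (−5.17 ± 0.36 SE against H2452). ITGB5, the beta 5 integrin chain that pairs with the alpha V chain to bind vitronectin, was at 71, 15 and 75 CP20M, and at 2288 and 2123 in H2052, 3486, 3007 and 2586 in H2452 and 2696, 2440 and 2694 in H28 (−5.31 ± 0.41 SE against H2052, adjusted p = 1.71e-06). Among matrix genes, ADAMTS2, which trims fibrillar procollagens, was at 3, 9 and 5 against 668 to 4261 (−5.64 ± 0.24 SE against H28). PLOD1, the lysyl hydroxylase that prepares collagen for cross-linking, was at 30, 19 and 14 against 975 to 2980 (−5.25 ± 0.19 SE against H28), and the fibulin FBLN7 at 4, 5 and 2 against 375 to 808 (−4.93 ± 0.18 SE against H2452). PLXDC2, a plexin domain membrane protein, was listed at 0, 0 and 0 and at 203 to 4283 elsewhere (adjusted p = 2.14e-06). The RNA-binding splicing regulator CELF2 was at 11, 14 and 19 against 829 to 1534 (−5.38 ± 0.20 SE against H28), the sulfatase family member ARSD at 3, 2 and 3 against 519 to 1658 (−5.52 ± 0.21 SE against H2452), and the kinase ALPK2 at 0, 2 and 5 against 187 to 2064 (−5.50 ± 0.50 SE against H28). TBC1D9 (a Rab GTPase-activating domain protein) and KIAA1644 were lower as well, at 15, 5 and 11 against 652 to 1811 and at 28, 6 and 6 against 638 to 1621. GINM1 is described with its neighbours. The 15 genes kept their call in all 24 other settings.

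The oncogene MYC and its neighbour PVT1 on chromosome 8 formed a local group of higher genes. MYC was at 10088, 20772 and 15698 CP20M in MSTO-211H, at 4086 or less in H2052, at 1816, 1667 and 2633 in H2452 and at 5040, 4853 and 3417 in H28 (1.76 ± 0.29 SE against H28, adjusted p = 0.000249). The lowest MSTO-211H value lay above the highest value of the other lines, 5040 in H28. PVT1 (ENSG00000249859, chromosome 8 from 127794526 to 128187101, plus strand), a long non-coding RNA gene that starts 59.1 kb to the right of MYC, was at 18092, 15514 and 15731 CP20M, and at 1071 and 1152 in H2052, 1031, 1007 and 1213 in H2452 and 694, 668 and 784 in H28 (3.87 ± 0.13 SE against H2052, adjusted p = 3.64e-09). The genes within the 414.7 kb to the right of MYC that passed the filter were all higher, among them TMEM75 at 1782, 716 and 988 against 51 to 97 (3.64 ± 0.31 SE against H2452). Apart from PVT1 itself, these genes all lie inside PVT1, TMEM75 on the opposite strand, and most are small RNA genes. Their reads cannot be told apart here from those of PVT1. CASC11, which overlaps MYC on the opposite strand and reaches 49.1 kb to the left of it, was at 71, 121 and 71 against 0 to 10 (2.59 ± 0.25 SE against H2452). Farther left the group ended. FAM84B, 1183 kb away, was at 362, 747 and 756 CP20M in MSTO-211H and higher in H2052 and H28 (1732, 3567, 1256, 1503 and 1463). TRIB1, SQLE and MTSS1 were not set apart either, with MTSS1 at 1227, 695 and 733 against 11654 and 12301 in H2052. PVT1, CASC11 and TMEM75 were named after their values were seen. Of the 12 genes of the MYC network that passed the filter, MYC and its obligate partner MAX were higher and 0 were lower. MAX, on chromosome 14, was at 1906, 2100 and 1902 against 529 to 1066 (0.93 ± 0.12 SE against H2052, adjusted p = 9.08e-05). The median mean difference of these 12 genes was 0.26.

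On the long arm of chromosome 6, next to the Hippo kinase gene LATS1, 2 neighbouring genes had no counted RNA. GINM1 (ENSG00000055211, chromosome 6 from 149566294 to 149591748, plus strand), which encodes a glycoprotein integral membrane protein, was listed at 0, 0 and 0 in MSTO-211H and at 615 and 575 in H2052, 960, 1156 and 932 in H2452 and 913, 1160 and 853 in H28 (adjusted p = 1.5e-09). KATNA1, the catalytic subunit of the microtubule-severing katanin, lies beside it and was listed at 0, 0 and 0, and at 231 to 384 in the other lines (adjusted p = 7.58e-09). Both were also listed at 0 in the 3 palbociclib libraries of MSTO-211H. The next gene is LATS1 itself (chromosome 6 from 149658153 to 149718105). It was detected at 389, 406 and 354 CP20M, below the 704 and 676 in H2052, 1119, 1284 and 1078 in H2452 and 1811, 1720 and 1699 in H28, with a smallest difference of −0.83 ± 0.12 SE against H2052 and an adjusted p of 0.000145. PCMT1, which repairs damaged aspartyl residues, was at 521, 472 and 580 against 901 to 2073 (−0.84 ± 0.15 SE against H2052). The genes around these were not set apart. NUP43 between LATS1 and PCMT1 was at 609, 673 and 791 against 620 to 1879, PPIL4 on the far side of GINM1 at 346, 460 and 355 against 315 to 775, and TAB2 beyond it at 797, 965 and 888 against 1151 to 2299 CP20M. TAB2 thus lay below every other library, but its smallest difference (−0.55, limma adjusted p = 0.0047) missed the 1.5-fold threshold. KATNA1 and PCMT1 were named after their values were seen.

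A cluster of zinc finger genes on the short arm of chromosome 19 was the largest local group of lower genes. The ZNF genes of this region encode KRAB-type zinc finger proteins, repressors that bind DNA and are best known for silencing transposable elements, and they arose from each other by tandem duplication. Between ZNF14 and ZNF681 (chromosome 19 from 19710472 to 23758891, 4.05 Mb) lie 34 ZNF genes, of which 23 passed the filter. In MSTO-211H 16 of these 23 (69.6%) were lower than in every other line and 0 were higher, and for 22 the mean difference was below 0 (median −1.82). Of the 412 other ZNF genes tested, 14 were lower (3.40%), with a median of 0.19. The window was chosen after these values were seen, so no test is given. ZNF43 was at 4, 2 and 3 CP20M, and at 364 and 172 in H2052, 504, 544 and 497 in H2452 and 906, 1100 and 815 in H28 (−4.33 ± 0.26 SE against H2052, adjusted p = 2.66e-07). ZNF626 was at 5, 6 and 4 against 160 to 364 (−3.57 ± 0.17 SE against H2052), and ZNF714 at 12, 10 and 15 against 209 to 1279 (−3.51 ± 0.20 SE against H2452). No library of another line overlapped MSTO-211H for these genes. Other lower members were named after their values were seen. ZNF429 was at 4, 0 and 2 against 97 to 173, ZNF93 at 8, 2 and 10 against 81 to 288 and ZNF738 at 14, 3 and 12 against 94 to 427 CP20M. More RNA was left of ZNF431, 226, 171 and 158 against 391 to 1143 and ZNF506 at 187, 112 and 178 against 329 to 579 CP20M. ZNF14 at the left end, at 109, 151 and 110 against 80 to 128, was the gene with a mean difference above 0. Reads shared between such close paralogs could be split or lost in counting, so single values of the cluster are uncertain. ZNF66 lost its call without H2052 replicate 1, or without MSTO-211H replicate 2, or with a pseudocount of 50 (adjusted p up to 0.243), and ZNF708 without H2052 replicate 1, or without MSTO-211H replicate 2 (adjusted p up to 0.183).

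The promoters of the cluster are shown because the genes that were low and those that were not share the same sequence feature. The 250 bases before the start of 3 lower genes and of ZNF430, a member within the cluster that was not set apart (156, 125 and 145 CP20M against 153 to 325), are given from RefSeq (GRCh38.p14), 5′ to 3′ on the strand of the gene. Capitals mark TCCAATCA, which holds the letters of a CCAAT box. It was chosen after these promoters were read. The windows are chr19:21836183-21836432, minus strand (ZNF43), chr19:21081953-21082202, plus strand (ZNF714), chr19:20661572-20661821, minus strand (ZNF626) and chr19:21020407-21020656, plus strand (ZNF430).
ZNF43: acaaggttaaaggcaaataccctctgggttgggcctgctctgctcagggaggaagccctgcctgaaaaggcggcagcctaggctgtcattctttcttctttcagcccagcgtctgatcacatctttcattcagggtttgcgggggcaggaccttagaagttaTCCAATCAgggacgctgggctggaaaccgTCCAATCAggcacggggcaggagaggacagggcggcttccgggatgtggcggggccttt
ZNF714: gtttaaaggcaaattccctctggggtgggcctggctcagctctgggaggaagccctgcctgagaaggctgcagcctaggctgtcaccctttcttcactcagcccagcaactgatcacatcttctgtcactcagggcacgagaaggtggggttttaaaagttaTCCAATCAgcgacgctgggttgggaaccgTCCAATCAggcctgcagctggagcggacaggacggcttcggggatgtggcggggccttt
ZNF626: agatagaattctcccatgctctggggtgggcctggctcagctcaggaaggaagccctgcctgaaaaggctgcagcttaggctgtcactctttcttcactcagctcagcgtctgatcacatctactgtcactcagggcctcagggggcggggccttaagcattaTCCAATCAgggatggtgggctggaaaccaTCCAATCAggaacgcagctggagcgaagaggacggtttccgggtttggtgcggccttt
ZNF430: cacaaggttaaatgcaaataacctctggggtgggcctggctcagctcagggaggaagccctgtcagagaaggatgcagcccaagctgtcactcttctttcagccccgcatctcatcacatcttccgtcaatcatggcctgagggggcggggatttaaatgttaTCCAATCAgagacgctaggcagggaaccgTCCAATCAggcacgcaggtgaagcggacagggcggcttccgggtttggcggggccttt

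Each of the 4 promoters holds this motif at 2 places, 88 and 59 bases before the start in ZNF43 and ZNF714 and 87 and 58 bases before it in ZNF626 and ZNF430. Searched on both strands (reverse TGATTGGA) in the window of 300 bases around the start, the motif was in 440 of 27305 RefSeq promoters (1.61%). Of the tested genes of the cluster with a promoter in this table, it was in 14 of 14 lower and 6 of 6 that were not set apart. The motif thus marks the cluster and does not separate its lower members from the rest.

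**Figure D2:**
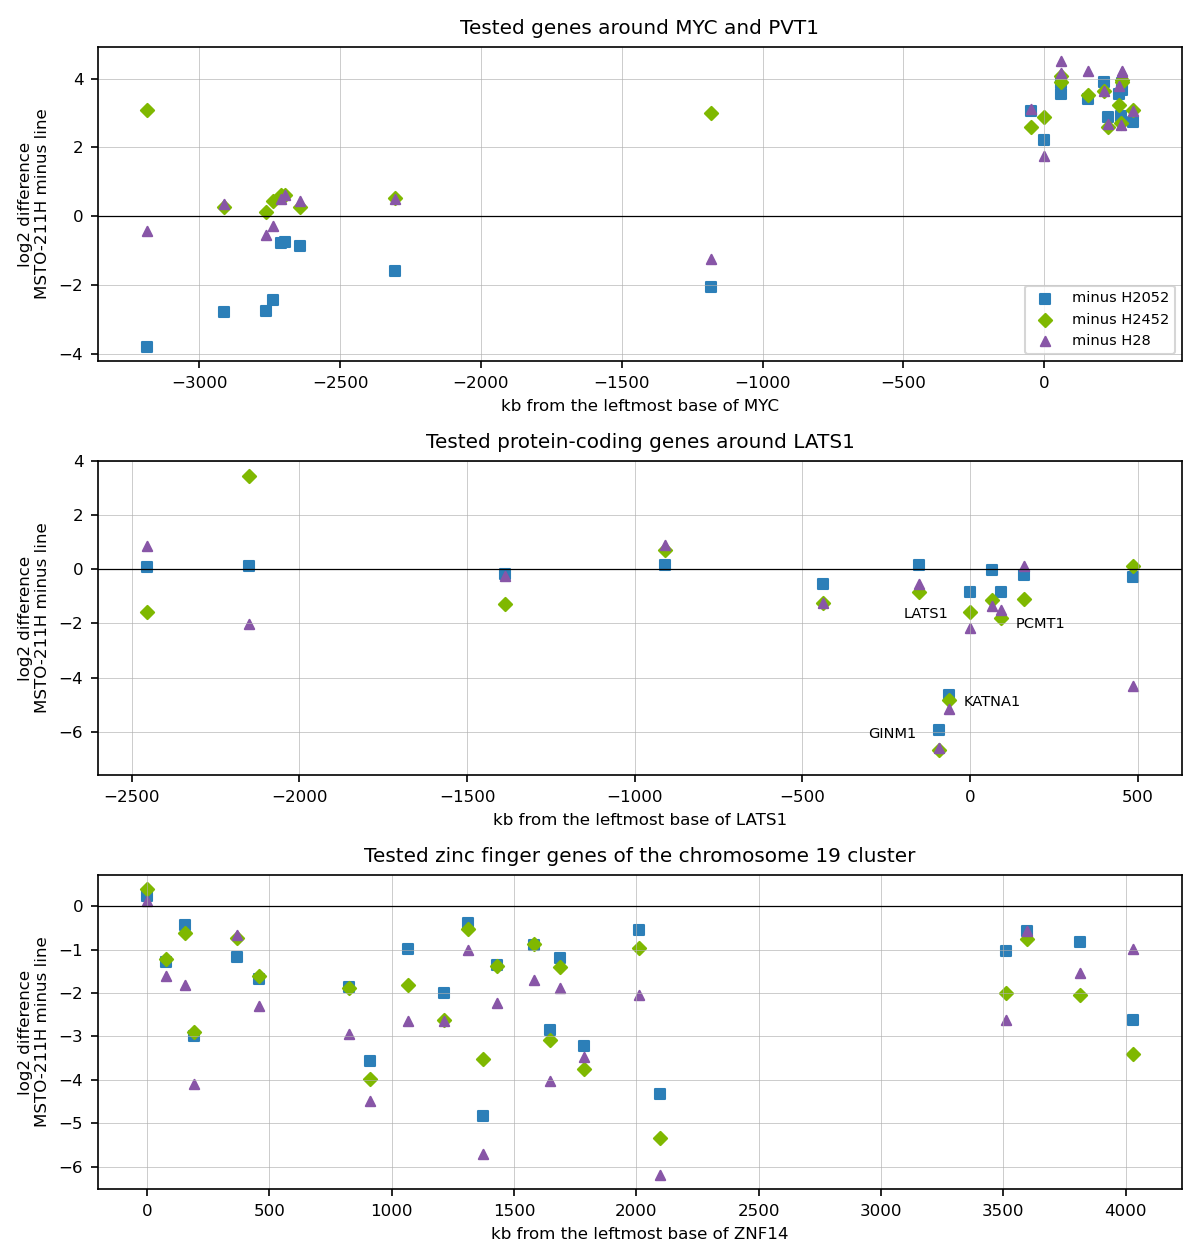
Log2 difference of MSTO-211H minus each other line (points) against the distance in kb from the leftmost base of MYC (top), LATS1 (middle) and ZNF14 (bottom), for tested genes. Genes from CASC11 to the right of MYC lie above 0 against every line, GINM1 and KATNA1 stand below their neighbours, and 22 of 23 zinc finger genes have a mean below 0.

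HOX genes, which set position along the body axis, had the largest share of higher members among the lists examined. Of 39 HOX genes in the matrix, 24 passed the filter. Of these, 11 were higher in MSTO-211H than in every other line (45.8%, beside 8.43% of all genes) and 0 were lower (9 to 12 higher over the 24 other settings). Every MSTO-211H library lay above all 8 others for 17 of the 39. The mean difference was above 0 for 23 of 24, with a median of 2.5 against 0.08 over all tested genes. By line the medians of these 24 genes were 0.64 against H2052, 4.00 against H2452 and 2.76 against H28, so H2052 was the closest. HOXD9 was at 405, 579 and 538 CP20M, and at 0 and 3 in H2052, 0, 0 and 0 in H2452 and 20, 27 and 24 in H28 (adjusted p = 2.35e-08). HOXA9, best known from blood stem cells and leukaemia, was at 126, 143 and 178 against 0 to 14 (adjusted p = 2.79e-07). HOXC13 was at 100, 128 and 138 against 3 to 14 (2.70 ± 0.25 SE against H2052), and HOXD8 at 404, 528 and 440 against 0 to 129 (1.81 ± 0.17 SE against H28). The other higher members came from all 4 clusters and were named after their values were seen. HOXC8 was at 658, 716 and 659 against 0 to 263, HOXA10 at 336, 329 and 362 against 0 to 159 and HOXD3 at 260, 126 and 167 against 0 to 57 CP20M. HOXC4, HOXC9, HOXA3 and HOXB4 had smallest differences of 1.06, 1.01, 0.68 and 0.69. HOXB4 lost its call without H2052 replicate 1 or 2, or without MSTO-211H replicate 3, or with median-of-ratios scaling or upper-quartile scaling (adjusted p up to 0.0872), HOXA3 without H28 replicate 1, or with a pseudocount of 1 or upper-quartile scaling (adjusted p up to 0.0579), and HOXC4 with a pseudocount of 1 (adjusted p up to 0.0803). Not every member followed. HOXB8 was at 63, 59 and 89 CP20M in MSTO-211H and at 394 and 375 in H2052, and HOXC10 at 26, 21 and 29 against 241 and 228 in H2052.

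**Figure D3:**
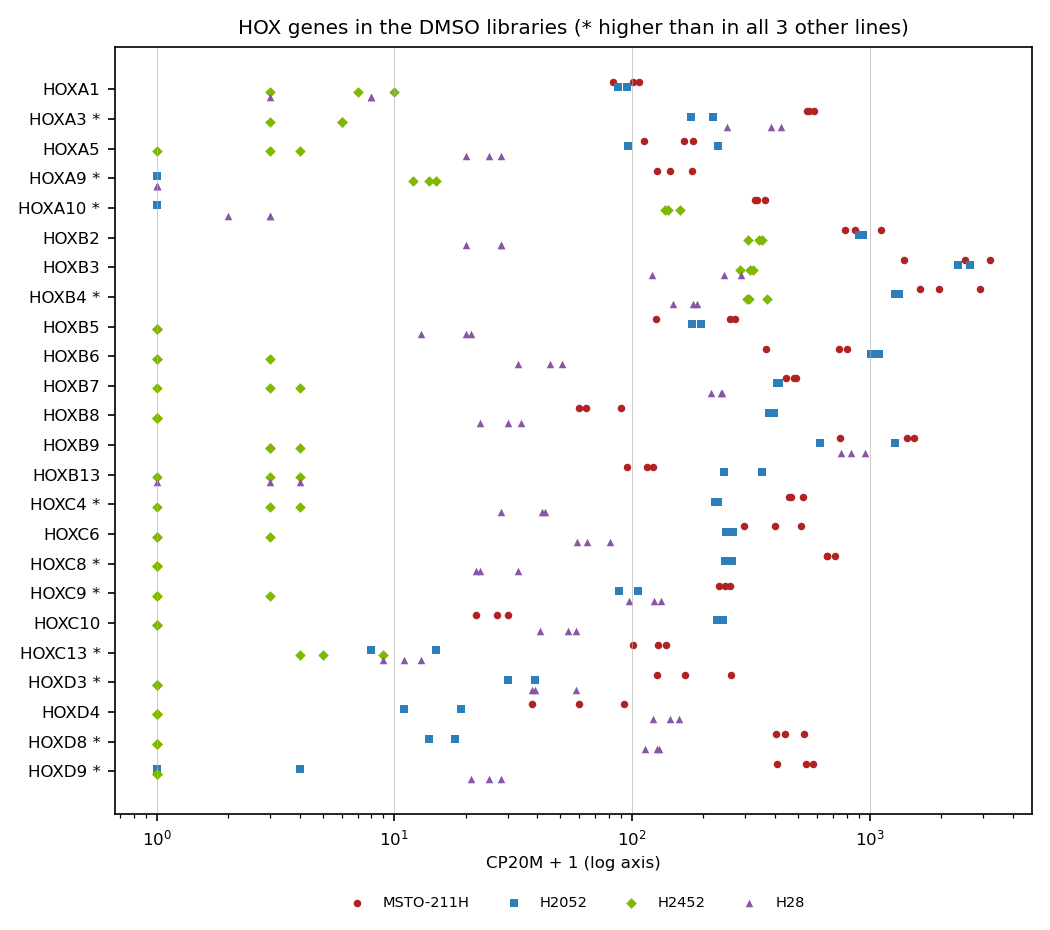
CP20M + 1 on a log axis for the 24 tested HOX genes in the 11 DMSO libraries, a star marking the 11 that were higher in MSTO-211H than in each other line. H2452 (diamonds) lies at or near 1, which is 0 CP20M, for many genes at which MSTO-211H (circles) is above 100, with HOXD9, for example, at 405 to 579 in MSTO-211H and 0 in H2452.

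Other developmental transcription factors were higher more often than lower. Of 69 that passed the filter, 14 were higher (20.3%) and 4 lower (5.8%), beside 8.43% and 5.51% of all genes, with a median of 0.48. HAND2, a bHLH factor of heart and limb, was at 190, 212 and 162 CP20M against 0 to 9, PAX9 of the pharyngeal pouches at 277, 472 and 367 against 0 to 33 (3.30 ± 0.24 SE against H28), and EYA4, a coactivator of homeodomain proteins, at 1525, 1245 and 927 against 0 to 269 (2.35 ± 0.22 SE against H2452). Lower members included PAX6, the eye and forebrain factor, at 26, 31 and 27 against 132 to 748 (−2.17 ± 0.15 SE against H28, adjusted p = 3.14e-07), and MSX2, listed at 0, 0 and 0 against 11 to 486 (adjusted p = 0.000273), a call lost with a pseudocount of 50 (adjusted p up to 0.0567). TFAP2A was at 692, 732 and 640 against 1157 to 1570 (−0.87 ± 0.10 SE against H28), and PBX3 at 329, 239 and 478 against 477 to 2046, a call lost without H28 replicate 1, or without MSTO-211H replicate 2 (adjusted p up to 0.0687).

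The labels call all 4 lines MPM cells, and the mesothelial markers were checked against this. MSTO-211H had RNA of mesothelin (MSLN, 597, 449 and 905 CP20M), WT1 (242, 263 and 255) and the transcription factor BNC1 (1255, 1892 and 1532), and abundant KRT8 (29735, 25085 and 35008) and KRT18 (14721, 16176 and 20496). Calretinin (CALB2) was at 61, 10 and 64, and PDPN (podoplanin) was listed at 0, 0 and 0, as it nearly was in H28 (0, 0 and 4). KRT7 was at 29, 46 and 49 in MSTO-211H and 36, 35 and 50 in H28, against 3430 to 12716 in the other lines. KRT5 and MUC16 were listed at 0 and ITLN1 at 0 to 4 CP20M. The summed level of the 20 markers was 44430 to 58938 CP20M in MSTO-211H and 12223 to 98815 in the other lines. Most of the MSTO-211H sum was KRT8 and KRT18, so it says little about the other markers. Of 15 that passed the filter 0 were higher and 2 were lower, KRT19 and the mesothelial leucine-rich repeat gene LRRN4 (9, 2 and 9 against 21 to 524), with a median of −0.26. LRRN4 lost its call without H2452 replicate 2, or without MSTO-211H replicate 2, or with a pseudocount of 50 (adjusted p up to 0.16). MSLN was not set apart, since H28 was at 1, 3 and 9, and neither was WT1, at 107 to 591 in the other lines.

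Of 15 epithelial junction genes that passed the filter, 2 were lower (13.3%) and 1 higher (6.7%), beside 5.51% and 8.43% of all genes. The medians were −1.13 against H2052, 0.18 against H2452 and −0.51 against H28, so the list did not lie on one side of the other lines. JUP (plakoglobin), a link between cadherins and the cytoskeleton, was at 21, 6 and 22 CP20M, and at 453 and 654 in H2052, 359, 600 and 182 in H2452 and 305, 490 and 535 in H28 (−3.80 ± 0.41 SE against H2452, adjusted p = 1.46e-05). DSP, the desmosomal plaque protein desmoplakin, was at 59, 31 and 76 against 120 to 6772 (−1.29 ± 0.23 SE against H2452, adjusted p = 0.000585). The higher gene, MARVELD2 (tricellulin), was at 272, 270 and 166 against 72 to 159 and lost its call without H2052 replicate 1 or 2, or without MSTO-211H replicate 1 or 2, or with median-of-ratios scaling or upper-quartile scaling (adjusted p up to 0.123). CDH1 (E-cadherin) was listed at 0 or 1 in MSTO-211H and at 0 to 5 elsewhere and was not tested. CDH2 (N-cadherin) was at 2806, 2956 and 2866 against 1521 to 8601 and was not set apart.

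Among 26 mesenchymal genes that passed the filter, 3 were higher (11.5%) and 2 lower (7.7%), beside 8.43% and 5.51% of all genes, with a median of −0.17. The higher genes were COL3A1, a fibrillar collagen (3906, 2101 and 1727 CP20M, and 17 and 17 in H2052, 132, 2662 and 92 in H2452 and 1, 0 and 0 in H28), FAP, a protease of activated fibroblasts (1249, 342 and 400 against 0 to 180, 2.04 ± 0.48 SE against H2052), and TWIST1, a bHLH factor of mesenchyme (451, 641 and 619 against 0 to 166, 1.96 ± 0.19 SE against H2452, adjusted p = 1.46e-05). COL3A1 overlapped replicate 2 of H2452, with 2.85 ± 0.94 SE against H2452, and its call was lost without H2452 replicate 1 or 3, or without MSTO-211H replicate 1 (adjusted p up to 0.0862). FAP lost its call without H2052 replicate 2 (adjusted p up to 0.055). FN1 (fibronectin) was lower at 639, 327 and 329 against 1295 to 51392 (−2.33 ± 0.69 SE against H2452), as was THY1, a glycoprotein of fibroblasts, at 585, 344 and 331 against 668 to 8148 (−1.17 ± 0.24 SE against H2452, adjusted p = 0.00123). FN1 lost its call without H2452 replicate 2 (adjusted p up to 0.0505).

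Markers of other cell types were looked at because a culture could hold other cells. Of 15 haematopoietic markers 2 passed the filter, of 11 lung epithelial markers 1, of 12 cartilage and bone markers 5, of 14 muscle markers 4 and of 10 endothelial markers 4. None of the haematopoietic, lung, cartilage and bone markers was set apart in limma, and their summed levels in MSTO-211H were 956 to 1244, 133 to 213 and 3522 to 6117 CP20M against 170 to 1610, 92 to 348 and 703 to 13496 in the other lines. The smooth muscle myosin MYH11 was lower (116, 72 and 108 against 127 to 289), a call lost without H28 replicate 1 or 3, or without MSTO-211H replicate 2, or with a pseudocount of 50 (adjusted p up to 0.0821). TIE1, an endothelial receptor, was higher (2647, 1817 and 2155 CP20M against 1105 and 1463 in H2052, 185, 197 and 175 in H2452 and 2, 0 and 10 in H28), a call lost without H2052 replicate 1, or without MSTO-211H replicate 1 or 3, or with a pseudocount of 1, no filter, median-of-ratios scaling, upper-quartile scaling, the replicate number as a block or all 14 DMSO libraries in the fit (adjusted p up to 0.374). The endothelial sum was 1963 to 2983 CP20M in MSTO-211H and 51 to 1844 elsewhere, most of it TIE1.

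The mesothelioma tumour suppressors differed from line to line, and LATS1 alone among them was set apart. CDKN2A was at 34, 26 and 18 CP20M in MSTO-211H and listed at 0 in all 8 others, below the filter and not tested. CDKN2B was listed at 0 in all 11. MTAP, which lies beside CDKN2A and salvages methionine, was at 1274, 1816 and 1423 in MSTO-211H and 1192, 1198 and 1188 in H28, and at 0 to 2 in H2052 and H2452. LATS2 was at 1401, 1335 and 1309 CP20M in MSTO-211H where the listed deletion covers only a short stretch of the gene, at 0 in H2052 and at 1876 to 3847 in H2452 and H28. NF2 was at 4059, 4022 and 4715 against 407 and 305 in H2052 and 5738 to 16708 in the other lines. BAP1, at 2014, 1669 and 2021, was within the range of the other lines (1145 to 2420).

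In the Hippo pathway, 2 of 27 genes that passed the filter were higher (7.4%) and 3 lower (11.1%), beside 8.43% and 5.51% of all genes, with a median of 0.30. The scaffold SAV1 was at 1202, 1669 and 1479 CP20M against 416 to 804 (0.83 ± 0.16 SE against H2052, adjusted p = 0.000983), and AJUBA, a LIM protein that holds LATS kinases inactive, at 6641, 7537 and 5993 against 1986 to 4518 (0.69 ± 0.13 SE against H2052). Besides LATS1, the upstream kinase TAOK2 was lower at 1651, 953 and 1280 against 2076 to 2560 (−0.75 ± 0.19 SE against H2052), and the YAP partner TEAD1 at 2251, 1981 and 2411 against 3355 to 8884 (−0.73 ± 0.12 SE against H28, adjusted p = 0.000254). AJUBA lost its call without H2052 replicate 1, or with median-of-ratios scaling or upper-quartile scaling (log2 difference down to 0.55), and TAOK2 without MSTO-211H replicate 2 (log2 difference down to −0.55). YAP1 (2975, 2620 and 3038 against 2584 to 5634) and WWTR1, which encodes TAZ (742, 849 and 795 against 387 to 10252), were not set apart. Of 22 YAP target genes, 3 were higher and 0 lower (1 to 4 higher over the settings), with a median of 0.07, near the 0.08 of all genes. CTGF was at 1560, 1579 and 2640 CP20M, and at 635 and 549 in H2052, 837, 734 and 815 in H2452 and 170, 85 and 131 in H28 (1.22 ± 0.24 SE against H2452, adjusted p = 0.00115), and CYR61 at 15570, 20198 and 18714 against 2676 to 10056 (0.97 ± 0.25 SE against H2052). Both encode secreted matricellular proteins. CYR61 lost its call without H2052 replicate 2 (adjusted p up to 0.0585).

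Growth factor receptors were little set apart. Of 12 FGF genes that passed the filter 2 were higher and 1 lower. The intracellular FGF12 was at 339, 239 and 223 CP20M against 25 to 127 (1.30 ± 0.24 SE against H28, adjusted p = 0.000623), and FGF14 at 1692, 1557 and 1571 against 0 to 963 (0.81 ± 0.24 SE against H2052), a call lost without H2052 replicate 2, or with a pseudocount of 1 or upper-quartile scaling (adjusted p up to 0.292). FGFR3 was lower at 18, 14 and 27 against 43 to 2978 (−1.31 ± 0.29 SE against H2452). FGFR1 was at 2920, 1878 and 3200 against 2490 to 7011 and not set apart, and FGF9 was at 0 in MSTO-211H and too low to be tested. Among 38 other receptor tyrosine kinases 3 were higher (7.9%) and 2 lower (5.3%), near the 8.43% and 5.51% of all genes. MUSK, the receptor of the neuromuscular junction, was at 49, 180 and 150 against 0 to 7 (2.88 ± 0.44 SE against H2052), EPHB6, a kinase-dead ephrin receptor, at 302, 179 and 262 against 18 to 118 (1.79 ± 0.43 SE against H2452), and ROR1, a receptor for WNT5A, at 70, 53 and 81 against 342 to 1378 (−2.51 ± 0.32 SE against H28, adjusted p = 8.63e-05). TYRO3, a receptor of the TAM family, was at 380, 264 and 336 against 392 to 1570 and overlapped no other library, but lost its call without H2452 replicate 1 (log2 difference down to −0.57). Of 20 ERK feedback genes, the ETS factor ETV1 was higher (310, 236 and 651 against 0 to 62, 3.15 ± 0.41 SE against H28) and 0 were lower.

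Among matrix genes, the lists differed in how many members were lower. Of 28 proteoglycan and matricellular genes that passed the filter, 7 were lower (25%) and 1 higher (3.6%), beside 5.51% and 8.43% of all genes, with a median of −0.99. Versican (VCAN) was at 1, 0 and 0 CP20M, and at 164 and 53 in H2052, 56, 1281 and 33 in H2452 and 48072, 59558 and 56443 in H28 (−3.34 ± 1.09 SE against H2052, adjusted p = 0.0218), a call lost without H2052 replicate 1, or with a pseudocount of 50 (adjusted p up to 0.161). Thrombospondin 1 (THBS1) was at 788, 397 and 363 against 3454 to 32192 (−3.20 ± 0.69 SE against H2052), the syndecan SDC2 at 6, 6 and 2 against 76 to 1149 (−3.09 ± 0.33 SE against H2452, adjusted p = 1.66e-05), and fibrillin 1 (FBN1) at 522, 140 and 82 against 829 to 58903 (−2.70 ± 0.67 SE against H28). The small leucine-rich proteoglycan biglycan (BGN) went the other way, at 1194, 1655 and 1058 CP20M against 2 to 136 (3.71 ± 0.34 SE against H2052, adjusted p = 6.01e-06). Of 32 matrix proteases and inhibitors 7 were lower (21.9%) and 1 higher (3.1%), although their median was 0.09 (4 to 8 lower over the settings). ADAMTS15, which cleaves versican and aggrecan, was at 6, 2 and 3 against 140 to 2682 (−3.89 ± 0.51 SE against H28), and the metalloproteinase MMP24 at 338, 216 and 266 against 544 to 2533 (−1.45 ± 0.42 SE against H28), while MMP19 was higher at 268, 199 and 172 against 17 to 70 (1.67 ± 0.27 SE against H2052).

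Collagens and their receptors were set apart in both directions. The paired basement membrane chains COL4A1 and COL4A2, which share a promoter region, were at 1057, 1118 and 868 and 2808, 2723 and 2891 CP20M against 2965 to 53761 and 7760 to 62768 (−1.61 ± 0.20 SE against H2052 and −1.59 ± 0.19 SE against H2052). COL4A6, another chain of that type, was higher at 821, 589 and 758 against 1 to 358 (1.22 ± 0.27 SE against H2052). Over 28 collagens 2 were higher and 2 lower, with a median of −0.92. Of 29 laminins and integrins 3 were higher (10.3%) and 4 lower (13.8%), beside 8.43% and 5.51% of all genes, with a median of −0.01. ITGB3, the beta 3 integrin chain, was at 10, 2 and 5 against 156 to 27270 (−3.58 ± 0.33 SE against H2052, adjusted p = 6.3e-06), and ITGA1, of a collagen receptor, at 59, 10 and 31 against 303 to 992 (−3.43 ± 0.50 SE against H2052), whereas the laminin chain LAMC3 was at 897, 928 and 976 against 2 to 518 (0.97 ± 0.23 SE against H2052). LAMB1 (15710, 12806 and 12785 against 1475 to 10441) lost its call without H28 replicate 1, or without MSTO-211H replicate 1, or with median-of-ratios scaling or upper-quartile scaling (adjusted p up to 0.0604), ITGA2 (1923, 1444 and 2470 against 245 to 1050) without H2052 replicate 1 or 2, or without MSTO-211H replicate 3, or with upper-quartile scaling (adjusted p up to 0.0881), LAMB3 (22, 25 and 30 against 43 to 6388) without H28 replicate 3, or without MSTO-211H replicate 1, or with a pseudocount of 50 (adjusted p up to 0.103), and LAMC3 with a pseudocount of 1 (adjusted p up to 0.0939).

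Among cell adhesion and guidance genes, close relatives were set apart in opposite directions. Of 27 immunoglobulin-type adhesion genes 2 were higher and 5 lower, with a median of 0.04. NCAM2 was higher (294, 232 and 251 CP20M against 0 to 49, 2.39 ± 0.22 SE against H2052) where NCAM1 was lower. CADM4 was at 925, 989 and 1028 against 21 to 277 (1.87 ± 0.34 SE against H2052), the contactin CNTN3 at 0, 0 and 2 against 49 to 2392 (adjusted p = 3.29e-05), and NRCAM at 6, 3 and 4 against 19 to 15198, a call lost without H2052 replicate 2, or without MSTO-211H replicate 2 or 3, or with a pseudocount of 50 (adjusted p up to 0.336). Claudin 11 (CLDN11), which seals myelin and testis barriers, was the higher one of 6 claudins, at 11117, 13120 and 12341 CP20M, and at 46 and 42 in H2052, 1128, 1855 and 2419 in H2452 and 4, 7 and 7 in H28 (2.82 ± 0.23 SE against H2452, adjusted p = 1.36e-06). Of 10 cadherins 0 were set apart. Among 47 ephrins, semaphorins and their partners, 5 were higher and 9 lower, with a median of −0.50. SLIT2, a secreted ligand of ROBO receptors, was at 2358, 2328 and 2341 against 138 to 669 (1.96 ± 0.31 SE against H2052) and its relative SLIT3 at 132, 17 and 22 against 555 to 6066 (−3.89 ± 0.65 SE against H28). The secreted semaphorin SEMA3A was higher at 2716, 2964 and 2799 against 10 to 598 (2.30 ± 0.35 SE against H2052), SEMA3F lower at 157, 72 and 83 against 354 to 2720 (−2.01 ± 0.40 SE against H2052), the ligand EFNB2 lower at 3, 6 and 5 against 81 to 1581 (−2.70 ± 0.25 SE against H2452) and EFNB3 higher at 311, 313 and 167 against 2 to 123 (1.28 ± 0.31 SE against H2052), and the receptor PLXNA2 lower at 23, 21 and 23 against 90 to 2732 (−2.06 ± 0.47 SE against H28). EFNB3 lost its call without H2052 replicate 1 (adjusted p up to 0.0637). SEMA3D (3752, 1998 and 3153 against 0 to 2982) lost it in 12 of 24 settings.

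In the WNT pathway 2 of 33 genes were higher and 6 lower, with a median of 0.06. The ligand WNT5B was at 4, 10 and 6 CP20M, and at 3975 and 3065 in H2052, 1382, 806 and 2006 in H2452 and 300, 159 and 438 in H28 (−4.12 ± 0.37 SE against H28, adjusted p = 2.36e-06). LGR4, a receptor for R-spondins, was at 47, 10 and 27 against 249 to 1131 (−3.22 ± 0.33 SE against H2452), and the receptor FZD6 at 102, 50 and 153 against 361 to 2185 (−1.90 ± 0.27 SE against H2452), whereas FZD3 was at 499, 494 and 459 against 0 to 177 (1.82 ± 0.27 SE against H2052) and the nuclear effector LEF1 at 243, 345 and 197 against 0 to 138 (0.95 ± 0.24 SE against H28), a call lost with a pseudocount of 1 (adjusted p up to 0.119). WNT9A was at 16, 14 and 12 against 69 to 147 (−2.08 ± 0.28 SE against H2452).

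Of 49 TGF-beta and BMP genes 6 were higher and 6 lower, with a median of −0.07. Among ligands, activin A (INHBA) was at 1812, 952 and 1142 CP20M against 15 to 513 (1.41 ± 0.45 SE against H2052) and INHBB was listed at 0, 0 and 0 against 2 to 1140 (adjusted p = 0.0308). Among the latent TGF-beta binding proteins, LTBP4 was at 5202, 5498 and 5138 against 213 to 2075 (1.38 ± 0.39 SE against H2052) and LTBP1 at 6, 5 and 6 against 66 to 1148 (−2.62 ± 0.65 SE against H28). The BMP receptor BMPR1B was at 268, 302 and 183 against 11 to 134 (1.27 ± 0.30 SE against H28). GDF1 was at 487, 464 and 509 against 70 to 244 (1.53 ± 0.32 SE against H2452), and the BMP antagonist chordin (CHRD) at 1, 0 and 0 against 22 to 513 (−2.67 ± 0.49 SE against H28). INHBA lost its call without H2052 replicate 1 or 2, or without MSTO-211H replicate 1 (adjusted p up to 0.11), LTBP4 without H2052 replicate 1 or 2 (adjusted p up to 0.0615), LTBP1 with a pseudocount of 50 (adjusted p up to 0.0678), and INHBB without H2452 replicate 1 or 2, or without MSTO-211H replicate 1, 2 or 3, or with a pseudocount of 50 or no filter (adjusted p up to 0.395). TGFBI, a matrix protein induced by TGF-beta, was at 3119, 534 and 384 against 4487 to 24741 (−2.63 ± 0.60 SE against H28). In the NOTCH list 3 of 16 genes were higher and 1 lower. The receptor NOTCH3 was at 1645, 800 and 976 against 17 to 280 (2.01 ± 0.49 SE against H2052), its ligand JAG2 at 2663, 2175 and 2533 against 777 to 1352 (1.02 ± 0.15 SE against H28, adjusted p = 0.000106), the target HES7 at 98, 214 and 193 against 4 to 47, and LFNG, a glycosyltransferase that modifies NOTCH, at 24, 7 and 27 against 77 to 5183 (−1.83 ± 0.35 SE against H2052).

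Of 17 complement genes that passed the filter, 4 were higher than in all 3 other lines (23.5%, 3 to 5 genes over the settings) and 0 lower. Of all tested genes 8.43% were higher and 5.51% lower. The list as a whole had no one direction, with medians of 0.99 against H2052, −1.15 against H2452 and 0.91 against H28. Besides CFI these included CD55, which protects cells from complement, at 1519, 2339 and 1819 CP20M against 169 to 825 (1.25 ± 0.40 SE against H2052), and CFD, at 171, 161 and 160 against 42 to 93 (0.90 ± 0.17 SE against H2452). CD55 lost its call without H2052 replicate 1 or 2, or without MSTO-211H replicate 2 (adjusted p up to 0.104). Of 31 cytokines and chemokines, 4 were higher (12.9%) and 2 lower (6.5%). The inflammatory genes CXCL8 (96, 863 and 1354 against 18 to 158), IL1A (174, 799 and 847 against 3 to 107) and CXCL2 (418, 862 and 931 against 7 to 270) were all lower in replicate 1 than in the other MSTO-211H libraries. Their smallest differences were 2.43 ± 0.82 SE against H2452, 2.41 ± 0.57 SE against H2052 and 2.14 ± 0.50 SE against H2052. CXCL8 lost its call without H2052 replicate 1, or without H2452 replicate 1, or without MSTO-211H replicate 2 or 3 (adjusted p up to 0.0971), and CXCL2 without H2052 replicate 1 (adjusted p up to 0.0591). IL32 was at 2676, 5699 and 2838 against 262 to 2248 (1.15 ± 0.33 SE against H28, adjusted p = 0.00944). Of 11 cancer-testis genes 3 were higher and 0 lower, with PRAME at 600, 469 and 496 against 0 to 171 (1.85 ± 0.23 SE against H28, adjusted p = 2.71e-05) next to MAGEB2.

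Genes of cell division were lower in MSTO-211H, with a spread between experiments that decided how many were called. Of 37 proliferation genes 9 were lower (24.3%, beside 5.51% of all genes), 0 were higher and 35 had a mean difference below 0, with a median of −0.80. The proliferation marker MKI67 was at 3355, 1555 and 5593 CP20M, and at 11235 and 4725 in H2052, 9136, 7589 and 7680 in H2452 and 11301, 7923 and 10717 in H28 (−1.24 ± 0.46 SE against H2052, adjusted p = 0.0392), and its replicate 3 value overlapped H2052 replicate 2. KIF11, the spindle motor, was at 510, 385 and 920 against 1166 to 2793 (−1.55 ± 0.35 SE against H2052), the S-phase transcription factor MYBL2 at 483, 173 and 656 against 945 to 2417 (−1.50 ± 0.38 SE against H2452), and UBE2C, a ubiquitin carrier of mitotic exit, at 276, 293 and 636 against 789 to 1906 (−1.40 ± 0.31 SE against H2452, adjusted p = 0.00214). The other 5, named after their values were seen, were KIF20A, RRM2, BUB1B, KIF23 and AURKA, with smallest differences of −1.19 to −0.81. The summed level of the list was 30266 to 71432 CP20M in MSTO-211H and 55018 to 117347 elsewhere. The count of lower genes was 2 without H2052 replicate 1, 4 without MSTO-211H replicate 2 and 6 without MSTO-211H replicate 1, and 14 without H2052 replicate 2 and 24 without MSTO-211H replicate 3. It was 14 with either other scaling and 19 with the replicate number as a block. UBE2C kept its call whichever library was left out. The other 8 lost it without some library, 7 of them without H2052 replicate 1 and AURKA without others, with adjusted p up to 0.37 (MKI67). MKI67 and AURKA also lost it with no filter, and MKI67 with days as a covariate. In the palbociclib libraries none of the 9 was set apart in limma.

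Among 32 regulators of G1, 3 were higher and 4 lower, with a median of −0.15. Cyclin D2 (CCND2), a partner of CDK4 and CDK6, was at 557, 2253 and 703 CP20M, with replicate 2 high, and at 204 and 401 in H2052, 8, 2 and 3 in H2452 and 18, 50 and 28 in H28 (1.71 ± 0.54 SE against H2052), a call lost without H2052 replicate 1 (adjusted p up to 0.166). RBL2, a pocket protein related to RB1, was at 4301, 5142 and 4607 against 1142 to 2396 (1.18 ± 0.14 SE against H2452, adjusted p = 2.14e-05), and E2F4, which acts with it as a repressor, at 2992, 2554 and 3155 against 978 to 1660 (0.85 ± 0.13 SE against H2052, adjusted p = 0.000214). E2F1 (283, 125 and 495 against 607 to 1591, −1.54 ± 0.42 SE against H2452), the CDK inhibitor gene CDKN2D (49, 21 and 40 against 57 to 190, −1.33 ± 0.34 SE against H28), RBL1 (290, 212 and 363 against 527 to 1022, −0.99 ± 0.23 SE against H2452) and cyclin E2 (CCNE2, 174, 106 and 158 against 239 to 566) were lower. E2F1 lost its call without H2052 replicate 1 (adjusted p up to 0.0608), and CCNE2 without H2452 replicate 1 or 3, or without MSTO-211H replicate 2 (adjusted p up to 0.0921). The count of lower G1 genes was 7 without MSTO-211H replicate 3.

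Ribosomal protein genes were slightly higher as a family in the values as deposited. Of 80 that passed the filter, 79 had a mean difference above 0, and the median was 0.53. Called higher were 11 (13.8%, beside 8.43% of all genes), and 0 were lower. RPL18 was at 9853, 14191 and 11563 CP20M against 3303 to 6534 (0.98 ± 0.14 SE against H28, adjusted p = 8.19e-05), RPS3A at 8620, 12129 and 8980 against 3581 to 5609 (0.96 ± 0.17 SE against H2052) and RPS6 at 12875, 20907 and 15521 against 5180 to 9993 (0.83 ± 0.19 SE against H2052). Replicate 2 of MSTO-211H was the highest library for each. The count depended on single libraries and on the scaling. It was 25 without MSTO-211H replicate 1, 5 without MSTO-211H replicate 2, 5 without H2052 replicate 1, 6 without H28 replicate 1 and 7 without H2452 replicate 1, and 5 and 6 with median-of-ratios and upper-quartile scaling. With these 2 scalings 1123 and 1034 of all tested genes were higher, so the excess of the family over all genes depended on the scaling. Members on chromosome 4 and 14, such as RPS3A and RPS29 (2555, 4824 and 3419 against 901 to 1877), lie on chromosomes with many higher genes, and RPS29 lost its call without H2052 replicate 1 (adjusted p up to 0.0858).

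Metabolic genes of hypoxia and glycolysis were lower in part. Of 34 that passed the filter, 5 were lower (14.7%, 3 to 7 genes over the settings) and 1 higher (2.9%), with a median of −0.69. Of all genes 5.51% were lower and 8.43% higher. NDRG1, a stress gene induced by hypoxia, was at 480, 528 and 329 CP20M, and at 3902 and 5533 in H2052, 6053, 3016 and 3993 in H2452 and 17738, 9500 and 13956 in H28 (−3.23 ± 0.29 SE against H2452, adjusted p = 8.97e-06). EGLN3, a prolyl hydroxylase that marks HIF proteins for decay, was at 10, 3 and 2 against 35 to 1133 (−1.71 ± 0.34 SE against H2052), and the glucose transporter SLC2A1 at 979, 636 and 882 against 1828 to 30210 (−1.16 ± 0.21 SE against H2052, adjusted p = 0.000683). The phosphofructokinase gene PFKM was higher at 3990, 5479 and 4266 against 1368 to 2339 (1.15 ± 0.20 SE against H28). In the folate list, MTHFD1 was higher (3728, 4432 and 4682 against 1538 to 2871, 0.85 ± 0.17 SE against H2452, adjusted p = 0.00129) and SHMT1 lower (739, 524 and 803 against 869 to 1464, −0.73 ± 0.20 SE against H2452), the latter a call lost without H2452 replicate 3, or without MSTO-211H replicate 2 (log2 difference down to −0.54).

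The genes that set MSTO-211H apart were spread unevenly over the chromosomes. Of the tested protein-coding genes with a position, 8.25% were higher and 5.53% lower. Chromosome 14 had 120 higher genes of 432 (27.8%), chromosome 4 had 122 of 474 (25.7%), chromosome 16 had 126 of 627 (20.1%) and chromosome 7 had 93 of 612 (15.2%). These 4 chromosomes held 461 of 1090 higher genes (42.3%) with 16.2% of the genes tested. Chromosomes 22 (49 of 318, 15.4%), 10 (69 of 508, 13.6%), 20 (49 of 370, 13.2%) and 15 (54 of 432, 12.5%) held the largest shares of lower genes, and together with chromosome 11 they held 284 of 731 lower genes (38.9%) with 18.0% of the genes tested. On chromosome 20 only 2 genes were higher (0.54%). The chromosomes were picked after these shares were seen. The median difference of all genes on chromosome 14 was 0.45 against H2052, 0.79 against H2452 and 1.02 against H28, and on chromosome 4 it was 0.57, 0.60 and 0.64. On chromosome 16 the higher genes were concentrated. Between 40 and 80 Mb, 103 of 208 genes were higher (49.5%) and 5 lower. From 20 to 40 Mb 2 of 125 were higher, and beyond 80 Mb 1 of 81 was higher and 15 were lower. RBL2, E2F4 and the proteasome gene PSMB10 lie in this stretch. The copy number of these chromosomes was not measured in these libraries, and its part in the result was not tested.

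**Figure D4:**
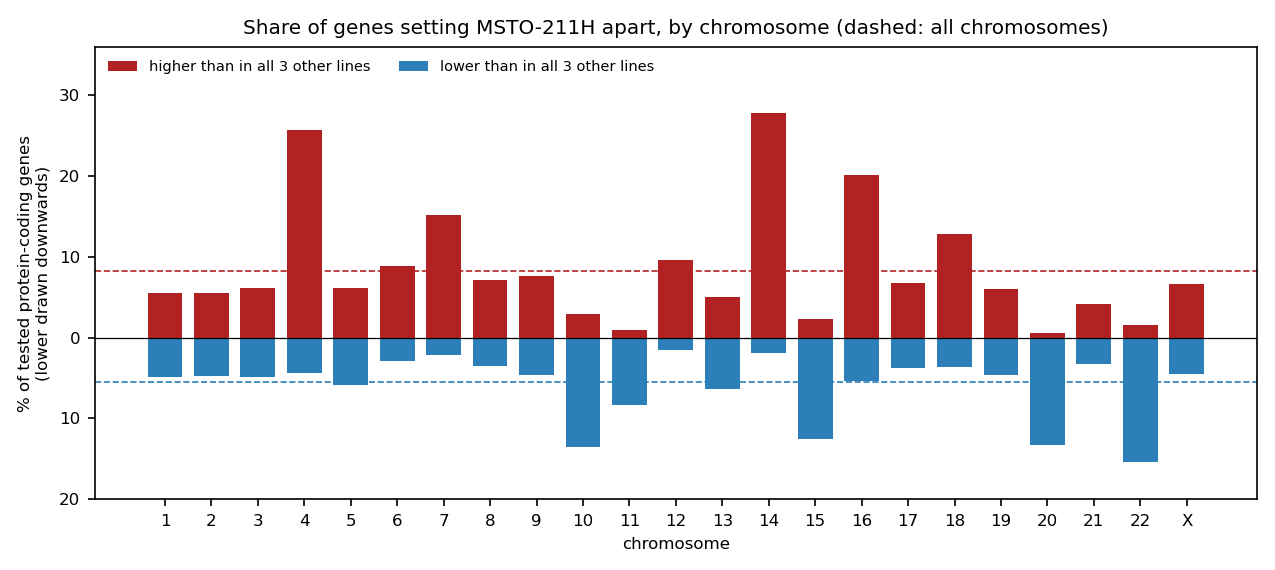
Share of tested protein-coding genes on each chromosome that were higher (upwards) or lower (downwards) in MSTO-211H than in every other sensitive line, in percent, with dashed lines at 8.25% and 5.53% for all chromosomes. Chromosomes 14, 4 and 16 stand out upwards at 27.8%, 25.7% and 20.1%, and 22, 10, 20 and 15 downwards.

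The CG content of promoters was compared as a feature that the rule did not use. Of 13203 tested protein-coding genes, 10159 (76.9%) matched a RefSeq promoter, which is under the 80% needed for a check over the set, so the values only describe the genes that matched. The median number of CG steps per 300 bases was 26 over all of them, 25 for higher and 27 for lower genes. Among 151 lower genes under 20 CP20M in every MSTO-211H library it was 21, and among 37 higher genes under 20 CP20M in all 8 others it was 10.

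The same rule was applied to the 11 palbociclib libraries of the 4 lines, which the DMSO comparison did not use, though they come from the same lines and experiments. Under palbociclib 1429 of 16052 genes were higher in MSTO-211H than in every other line (8.90%) and 739 lower (4.60%). Of the 1282 DMSO-higher genes tested there, 848 (66.1%) were again higher and 0 lower. Of the 873 DMSO-lower genes tested, 485 (55.6%) were again lower and 0 higher. The chromosome shares were similar, with 35.4% of genes on chromosome 14, 26.1% on chromosome 4 and 20.8% on chromosome 16 higher. KRT19 was at 0, 0 and 10 CP20M under palbociclib in MSTO-211H against 2532 to 18404 in the other lines, and KIF1A at 3093, 3424 and 2360 against 0 to 380. PVT1 was at 6434, 9045 and 5409 against 477 to 1205, and MYC at 7982, 17362 and 8952 against 1600 to 4563. SERPINB2 reached 50526, 27975 and 32808 against 0 to 3057. All 5 remained set apart. Some genes did not. JUP was at 165, 115 and 513 against 292 to 2283, FN1 at 2848, 1872 and 3657 against 1882 to 308982, and HOXD8 at 222, 437 and 302 against 0 to 238 CP20M.

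**Figure D5:**
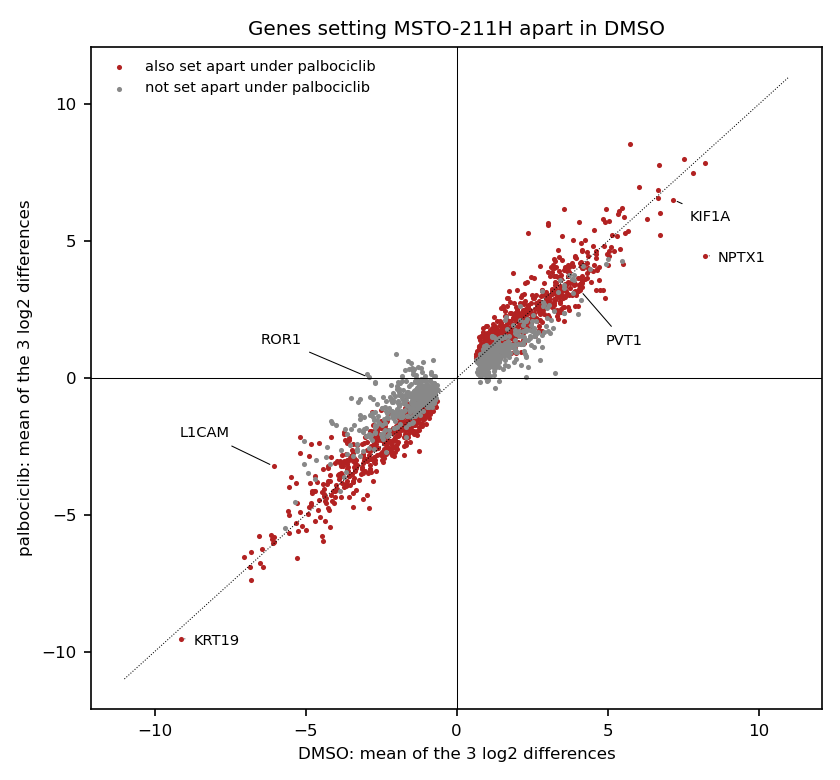
Mean of the 3 log2 differences of MSTO-211H from the other lines in DMSO (x axis) and under palbociclib (y axis) for genes that set it apart in DMSO and were tested under palbociclib. Red points (848 higher and 485 lower genes) were set apart in both conditions, and the dotted line marks equal differences.

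The levels were also set beside those of the resistant lines. Their 4 control libraries are 2 DMSO libraries of MPP89, 1 DMSO library of MeT-5A and 1 library of untreated MeT-5A cells. Of the 1373 higher genes, 910 (66.3%) had every MSTO-211H DMSO library above the 4 control libraries of MPP89 and MeT-5A, which was so for 3471 of all tested genes (21.3%). Of the 897 lower genes, 659 (73.5%) had every MSTO-211H library below these 4, against 3972 of all tested genes (24.4%). These counts reuse the MSTO-211H values that made the call, which favours shares above those of all genes. NPTX1 was at 6 to 28 CP20M in the resistant controls, PVT1 at 394 to 857 and NETO1 at 68 to 268, all under MSTO-211H. GINM1 was at 1120 to 1434 and ITGB5 at 974 to 2859, above MSTO-211H. KRT19, in contrast, was at 0 to 13 in the resistant controls, like MSTO-211H. SERPINB2 was at 0 to 9 and HOXD9 at 4 to 26, below it. In the MSTO-211H washout library, a single library of cells released from the drug, NPTX1 was at 524, KIF1A at 2867, SERPINB2 at 36377, PVT1 at 6521 and KRT19 at 5 CP20M.

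The genes next to the threshold show how it divides them. Just inside were TNS3 (0.71, adjusted p = 0.0498), AC233309.1 (−0.93, 0.0499) and DDX60 (0.82, 0.0499, a call lost in 17 of 24 other settings), and just outside ZNF367 (−1.20, 0.0502), ZNF724 (−1.04, 0.0503) and MIR7703 (0.71, 0.0507), as smallest differences with the largest adjusted p of limma.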

How the data were processed

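RNA of cultures of established cell lines was sequenced by the authors with a strand-specific kit. According to the submitters' processing notes, Trimmomatic 0.36, STAR 2.5.3 and HTSeq 0.9.1 were used to trim, align and count the reads, together with DESeq2. The deposited values are a score, CP20M: the authors scaled the counts of each gene to a common library size and the files hold them rounded up to whole numbers, so no count test was run here. Groups came from the titles in the labels, and 0 columns were left without a sample.

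Linear models were fitted to log2(CP20M + 10) by limma 3.58.1 in R 4.3.3 (lmFit and eBayes with trend, 1 group per line, 3 contrasts, Benjamini-Hochberg adjustment over all genes tested within each contrast). A gene was tested if any library of the fit reached 100 CP20M, and a call needed a change above 1.5-fold with an adjusted p under 0.05. A difference is MSTO-211H minus the other line. List medians are of the mean of the 3 log2 differences. The steps were tested on simulated data.

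The genes named were the 15 protein-coding genes with the largest smallest difference in each direction and no overlap between groups, up to 4 genes per list and direction, a fixed list of mesothelioma genes, and the 3 genes on either side of the threshold. Some genes that the rule picked are not reported here. Genes outside this rule are said to have been named after their values were seen. The members and lists were chosen with earlier results of these data known. Positions are from a GENCODE annotation of GRCh38, promoter sequences from RefSeq (GRCh38.p14). Figures were drawn with matplotlib 3.10.9. Alternatives covered the pseudocount, the filter, the scaling, the fit, the fold threshold, culture days, a replicate block and leaving out each library.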

Additional observations from a re-analysis of the deposited data

Results flagged for a closer look

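The change of the MSTO-211H difference under palbociclib was tested in limma over the 22 DMSO and palbociclib libraries of the 4 lines, as an interaction of line and condition with experiment as a block. This test was chosen after the data were seen. Over 16759 genes, the difference changed upwards against all 3 other lines for 407 and downwards for 155 (a change above 1.5-fold and an adjusted p under 0.05 in each). Groups of 2 or 3 libraries were too small to test for outlying samples. Of the genes named in the report, 20 were among them, and their values are the smallest of the 3 changes (log2, palbociclib minus DMSO) with the largest adjusted p. Many of these genes were named for their DMSO differences, which the change reuses, so the choice of genes itself favours differences that became smaller.

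Of the genes higher in DMSO, NPTX1 came closer to the other lines. It went from 5475, 7149 and 8167 CP20M in DMSO to 565, 572 and 316 under palbociclib, while the others were at 0 to 57, and the difference fell by 3.32 (adjusted p = 0.000942). CLDN11 and CASC11 also came closer, with changes of −1.30 (CLDN11, adjusted p = 0.0445) and −1.12 (CASC11, adjusted p = 0.021). Differences of higher genes grew by 0.76 (C4BPB, adjusted p = 0.0364), 2.22 (COL3A1, adjusted p = 0.00412), 1.11 (TIE1, adjusted p = 0.021), 0.85 (CADM4, adjusted p = 0.044) and 0.79 (MTHFD1, adjusted p = 0.00294).

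For 12 of the named genes lower in DMSO the difference changed upwards against all 3 other lines. Some of them passed a line rather than only coming closer to it. For THY1 the change was 2.74 against H2452 and 3.20 against H28, where its DMSO differences were −1.17 and −2.62. For ROR1 it was 3.04 against H28, from a DMSO difference of −2.51. ROR1 went from 70, 53 and 81 to 563, 453 and 814 CP20M, against 378 to 1161 in the others under palbociclib, a change of 2.66 (ROR1, adjusted p = 0.000393). L1CAM went from 47, 42 and 87 to 920, 622 and 1303, against 2126 to 32478, a change of 2.53 (L1CAM, adjusted p = 0.00215). For the matrix and signalling genes the changes were 2.17 (LTBP1, adjusted p = 0.00328), 2.13 (SLIT3, adjusted p = 0.0392), 1.89 (ADAMTS15, adjusted p = 0.0327), 1.70 (THY1, adjusted p = 0.00266), 1.64 (PLXNA2, adjusted p = 0.00612) and 1.45 (ADAMTSL3, adjusted p = 0.0299). They were 1.503 (KIAA1644, adjusted p = 0.00974), 1.39 (ITGB5, adjusted p = 0.00522), 0.76 (SHMT1, adjusted p = 0.0272) and 0.68 (LGR4, adjusted p = 0.0291) for the rest. In the DMSO fit, ADAMTSL3 lost its call with a pseudocount of 50 (adjusted p up to 0.101).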

How the results depend on the processing

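None of the 214 called genes that the naming rule picked reversed under the 24 other settings of the DMSO fit, in which 130 of them kept their call. Asking for a change above 2-fold, which by construction leaves fewer genes, gave 669 higher and 536 lower genes in DMSO, 2229 higher against H2052, 2980 higher and 2241 lower against H2452 and 2483 lower against H28. Under palbociclib it gave 714 and 425, with 411 and 302 of them also called in DMSO. Upper-quartile scaling gave 875 higher and 1162 lower genes under palbociclib, and 564 DMSO-higher genes that were higher there too. The share of higher genes under palbociclib went from 65.9% to 55.4% with median-of-ratios and 43.0% with upper-quartile scaling, against H2052 in DMSO from 54.2% to 44.2% and 44.5%, and against H28 from 55.7% to 52.7% and 46.4%. The cause was not tested.

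Leaving out 1 library at a time gave 1168 to 1415 higher and 750 to 994 lower genes in DMSO, 1220 to 1481 and 607 to 734 under palbociclib, and 762 to 865 and 425 to 507 called in both. It gave 3629 to 4189 higher and 3005 to 3646 lower against H2052, 4555 to 4686 and 3217 to 3731 against H2452, and 4606 to 4853 and 3568 to 3942 against H28. Without 1 of the 2 H2052 libraries the remaining one is assumed to vary like the other groups.

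With the replicate number as a replicate block, 1385 genes were higher and 972 lower in DMSO, and 1486 and 740 under palbociclib. Deviations of same-numbered libraries of different lines correlated at −0.05 to 0.36 (median 0.17, 12 of 15 above 0.1), and those with other numbers at −0.36 to 0.27 (median −0.08, 3 of 30 above 0.1). Same-numbered libraries thus tended to deviate together, but not in every pair, and no label ties them, so the reported fit has no block. Days in culture as a covariate gave 1358 and 885. The files hold no counts, and the depth of 4 libraries could not be estimated. Each line is 1 culture line, and a difference between them covers everything in which they differ.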

Other observations

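Immune genes were set apart singly. Of 42 interferon-stimulated genes that passed the filter, 3 were higher (7.1%) and 2 lower (4.8%), near the 8.43% and 5.51% of all genes, with a median of 0.63. HERC5, the ligase that attaches ISG15 to proteins, was at 762, 772 and 1002 CP20M against 0 to 313 in the other lines (1.52 ± 0.28 SE against H2052, limma adjusted p = 0.000893), and IRF7, a regulator of type I interferon, at 129, 93 and 147 against 241 to 756 (−1.16 ± 0.31 SE against H2052), a call lost without H2052 replicate 2 (adjusted p up to 0.0854). Of 16 MHC class I genes 1 was higher and 1 lower. PSMB10, a subunit of the immunoproteasome on chromosome 16, was at 1466, 1531 and 1077 against 295 to 784 (0.87 ± 0.16 SE against H2452), and HLA-G at 47, 59 and 45 against 74 to 672. HLA genes share reads with their paralogs, so this value is uncertain. Of 5 MHC class II genes 0 were set apart. Of 11 immune checkpoint ligands, CD70, a ligand of the T cell receptor CD27, was lower at 73, 117 and 81 against 203 to 1489 (−1.37 ± 0.26 SE against H2052), as was TNFSF9, the ligand of 4-1BB, at 83, 62 and 85 against 135 to 825, a call lost without H2052 replicate 1 or 2, or without MSTO-211H replicate 2, or with a pseudocount of 50 (adjusted p up to 0.118).

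In the IGF system 2 of 17 genes were higher and 1 lower. IGFBP7, a secreted binding protein, was at 320, 376 and 297 CP20M against 2077 to 7687 (−3.24 ± 0.27 SE against H2452), and IGFBP1 at 73, 101 and 161 against 0 to 37, a call lost without H2052 replicate 1 or 2 (adjusted p up to 0.0555). Of 26 NRF2 target genes 1 was higher and 2 lower, with a median of −0.61. The export pump ABCC2 was at 39, 25 and 31 against 79 to 9601 (−1.19 ± 0.23 SE against H2052), and FTL, the ferritin light chain, at 50534, 61072 and 40845 against 13325 to 28402 (1.03 ± 0.28 SE against H2052), a call lost without H2052 replicate 2 (adjusted p up to 0.0642). In the retinoid list of 28 genes, ALDH1A2, which makes retinoic acid and is a gene of embryonic mesothelium, was lower at 3, 2 and 15 against 40 to 1060 (−1.73 ± 0.26 SE against H28). Of 45 clustered protocadherins 1 was higher and 0 lower, of 14 SERPINs 2 and 1, of 14 BCL2 family genes 1 and 1, of 14 housekeeping genes 1 (GUSB, on chromosome 7) and 0, and of 5 metallothioneins 0.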
